A study of Homo sapiens with 27 samples.

Results

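The transcriptomes of 2 related human prostate cancer cell lines, LNCaP95 and LNCaP, were compared in their untreated state. LNCaP grows from a lymph node metastasis and is labelled androgen sensitive, and LNCaP95 is its derivative kept without androgen and is labelled castration resistant. The comparison took the 3 LNCaP95 and the 3 LNCaP libraries that had received the vehicle DMSO for 6 days without a change of medium, which are 6 of the 27 libraries of the series. The other libraries come from cells given 100 nM or 500 nM of IPI-9119, which inhibits the enzyme fatty acid synthase, over the same 6 days, and from a further line, 22Rv1. Both untreated groups carry the same vehicle and the same time in unchanged medium. No source used here gives the medium of each line, so differences between lines and differences between media cannot be told apart. Each line stands for 1 model. Nothing in the labels marks the replicates as separate cultures, so p-values measure only the spread among these libraries, and that spread may be technical. In bulk RNA, fewer cells that express a gene and less RNA per cell cannot be told apart.

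Of 20987 genes in the table, 12844 had a value of 10 or more in at least 3 of the 6 libraries and were tested. The unit is the normalised read count, reads divided by a size factor of the library, and where 3 values are given they are replicates 1, 2 and 3. Fold changes are LNCaP95 against LNCaP on the log2(value + 1) scale, where changes of weakly read genes come out too small, with the standard error after ± (n = 3 libraries per line). A gene is said to have risen, fallen or changed where limma gave an adjusted p under 0.05. By that rule 8706 genes, 67.8% of those tested, changed: 4532 (35.3%) were higher and 4174 (32.5%) lower in LNCaP95. Counts of list members below are to be read beside these shares. A change of at least 2-fold was called in 3711 genes (28.9%), of which 1857 (14.5%) were higher and 1854 (14.4%) lower. The median log2 fold change over all genes tested was 0.02. When libraries were scaled to equal totals in place of the deposited size factors, this median moved up by 0.21, and 64.4% of 8969 calls were higher, against 52.1% of the 8706.

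Reads in genes numbered 18497632 to 23565696 per library. LNCaP replicate 1 stood apart from the other LNCaP libraries: its Spearman correlation across genes was 0.985 with replicate 2 and 0.984 with replicate 3, which correlated with each other at 0.998, and LNCaP95 libraries correlated at 0.995 to 0.997. Without LNCaP replicate 1, 9433 genes changed. The luminal identity of the labels was checked on marker genes. Of 14 prostate luminal markers, 12 in LNCaP and 13 in LNCaP95 had a mean of 10 or more, and the summed level of the list was 101811 to 111401 in LNCaP and 79116 to 80709.8 in LNCaP95. CD24 was listed at 0 in both lines. Of 13 blood and endothelial markers, 2 in each line had a mean of 10 or more, and the sums were 209.9 to 337 in LNCaP and 110.1 to 129 in LNCaP95. PECAM1 and CD3E had 0 reads in the DMSO libraries of both lines.

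Androgens act on prostate cells through response elements in DNA, where pioneer factors such as FOXA1 open chromatin. They raise the transcription of prostate genes, among them the kallikrein proteases and TMPRSS2, and repress others. Prostate cancers that grow at low androgen often keep part of this programme, and other steroid receptors can act at similar elements.

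The promoters of 2 kallikrein genes on chromosome 19 that fell together are shown because they share a stretch long described as an androgen response element of KLK3. Each is the 250 bases before the start site in RefSeq, build GRCh38.p14, plus strand, chr19:50854665-50854914 for KLK3 and chr19:50873189-50873438 for KLK2. The 15 bases at the stretch are in capitals, and the last 14 of them are the same in both genes.
KLK3: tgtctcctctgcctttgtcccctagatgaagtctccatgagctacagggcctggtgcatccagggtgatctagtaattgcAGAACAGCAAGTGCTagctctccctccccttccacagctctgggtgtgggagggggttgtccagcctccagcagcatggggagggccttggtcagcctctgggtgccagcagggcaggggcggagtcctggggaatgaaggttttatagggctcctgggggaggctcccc
KLK2: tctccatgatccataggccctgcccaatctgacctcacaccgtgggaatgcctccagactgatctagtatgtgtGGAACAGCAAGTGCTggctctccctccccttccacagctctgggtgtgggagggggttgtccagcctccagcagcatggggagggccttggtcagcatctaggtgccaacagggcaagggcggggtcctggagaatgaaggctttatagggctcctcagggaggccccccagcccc
The capitals begin 170 bases before the start of KLK3 and 176 bases before that of KLK2. The 14 letters GAACAGCAAGTGCT were taken from the KLK3 promoter and searched on both strands. They occurred in 2 of 27305 promoter windows of 300 bases, those of KLK3 and KLK2. The KLK3 match was thus fixed in advance. The 2 promoters also match over long stretches in lower case, so this count does not test the element. The KLK3 stretch also holds the 6 letters AGAACA, the core of the element, which one or the other strand of 14.9% of all windows holds. Among 28 members of the androgen-induced list with a window, 4 (14.3%) held AGAACA on either strand: KLK3, FKBP5, PMEPA1 and MICAL1. The share was the same, 4 of 28, in the list of mitosis genes, and 8.67% in all tested genes with a window. It was thus not particular to androgen-induced genes. The full palindrome, AGAACA and TGTTCT with 3 bases between them, occurred in 0 windows of tested genes. TMPRSS2 is not among the windows used here.

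Genes that androgen induces were mostly lower in LNCaP95. Of 41 tested members of the androgen-induced list, 27 fell and 7 rose, with a median log2 fold change of -1.23 beside 0.02 over all genes, and 23 of the 27 fell at least 2-fold. KLK3, which encodes prostate-specific antigen, had values of 12816, 12836 and 11703 in LNCaP and 854, 751 and 900.1 in LNCaP95 (-3.90 ± 0.0902, adjusted p = 3.75e-08). All 3 LNCaP95 libraries lay far below all 3 LNCaP libraries, and 72.6% of all genes tested had groups that did not overlap. TMPRSS2, a membrane serine protease and the 5′ partner of common prostate cancer gene fusions, was at 13402, 9843 and 8751 in LNCaP and 464, 274 and 327 in LNCaP95 (-4.92 ± 0.210, adjusted p = 4.58e-07). KLK2, the protease that activates prostate-specific antigen, was at 5945, 2840.4 and 2687 in LNCaP and 296, 351 and 307 in LNCaP95 (-3.49 ± 0.269), with LNCaP replicate 1 well above the other LNCaP libraries. Without that library its fold change was -3.12. KLK4 fell by less (-1.64 ± 0.170, from values of 4033, 3375 and 3249 to 1027, 944 and 1503). SLC45A3, the transporter known as prostein, was at 3798, 3229 and 3444 in LNCaP and 718, 610.5 and 619 in LNCaP95 (-2.43 ± 0.0981). The cold-sensing channel TRPM8 was at 941, 383 and 395 in LNCaP and 61.6, 64.2 and 121 in LNCaP95 (-2.72 ± 0.379). The groups overlapped in neither gene, and TRPM8 was highest in LNCaP replicate 1 (fold change -2.3 without it).

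Other androgen-induced genes rose. FKBP5, a co-chaperone of steroid receptors that glucocorticoids also induce, went the other way, at 1193, 657 and 681 in LNCaP and 1997, 2174 and 2092 in LNCaP95 (1.36 ± 0.205, adjusted p = 0.000424). The other members that rose were ADAM7 (1.55), ACPP (1.56), ELL2 (1.42), EAF2 (1.16), SPOCK1 (2.3) and CENPN (0.33), given by log2 fold change. ACPP encodes prostatic acid phosphatase and ELL2 a transcription elongation factor. STEAP4 held at most 2.31 in any DMSO library of either line and was not tested.

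**Figure D1:**
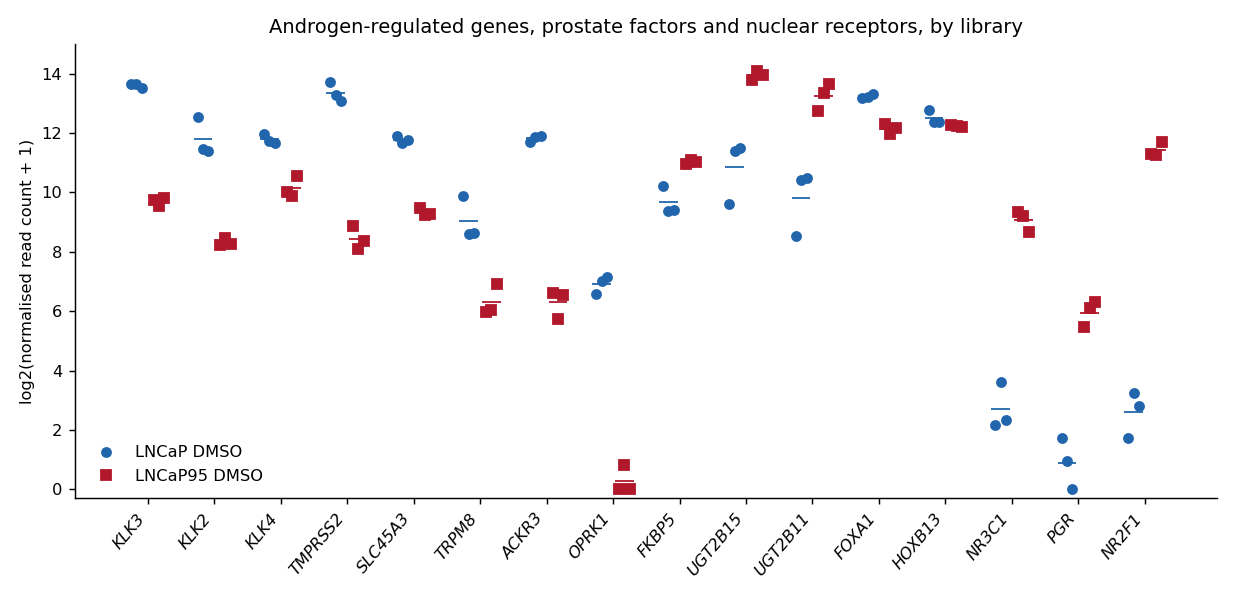
Normalised read counts on a log2(value + 1) axis for 16 genes, 3 points per line (circles LNCaP, squares LNCaP95, both with DMSO) and a bar at the mean. The kallikreins, TMPRSS2, SLC45A3, TRPM8, ACKR3 and OPRK1 sit lower in LNCaP95, FKBP5, UGT2B15, UGT2B11, NR3C1, PGR and NR2F1 sit higher, and FOXA1 differs by little more than 2-fold.

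Genes that androgen represses did not move one way: of 16 tested, 6 rose and 6 fell (median 0.08). OPRK1, the kappa opioid receptor gene, fell from 93.5, 129 and 142 in LNCaP to 0, 0.783 and 0 in LNCaP95, where the 3 libraries together held 1 read, a ratio of 458-fold (95% exact interval 81.8 to 18157) for counting error alone. ACKR3, a scavenging chemokine receptor, was at 3334, 3736 and 3778 in LNCaP and 96.8, 52.4 and 91.8 in LNCaP95 (-5.52 ± 0.214). BCHE, butyrylcholinesterase, was at 5031, 10598 and 11258 in LNCaP and 3.52, 3.13 and 3.79 in LNCaP95 (-10.88 ± 0.285). Among the rises, SCGN, a calcium-binding protein of secretory cells, stood at 0, 0 and 0.999 in LNCaP and 26.4, 46.2 and 37.9 in LNCaP95, a ratio of 109-fold (95% exact interval 19.2 to 4330.0), and MET, the receptor of hepatocyte growth factor, at 39.2, 25.6 and 28 in LNCaP and 90.7, 66.5 and 62.2 in LNCaP95 (1.22 ± 0.245).

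The pioneer factor FOXA1 fell, at 9234, 9589.6 and 10143 in LNCaP and 5005, 4044 and 4596 in LNCaP95 (-1.09 ± 0.0959). HOXB13, a homeobox factor of prostate cells, was at 7018, 5290.2 and 5283 in LNCaP and 4935, 4856 and 4739.8 in LNCaP95 and did not pass the test (-0.26 ± 0.116, adjusted p = 0.0727), though edgeR (-0.29) and DESeq2 (-0.29) called it. Among coregulators of steroid receptors, the coactivator NCOA2 fell (-0.85 ± 0.133), while the co-chaperone FKBP4 (0.66 ± 0.0835) and the demethylase KDM1A (0.39 ± 0.0709) rose by less than 2-fold.

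Several nuclear receptors differed by far more. The largest difference was in NR2F1, an orphan receptor also called COUP-TFI, at 2.31, 8.53 and 6 in LNCaP and 2531, 2455 and 3314 in LNCaP95 (8.83 ± 0.351, adjusted p = 3.24e-07). NR4A2, an immediate early orphan receptor, was at 1.15, 1.9 and 4 in LNCaP and 963, 736 and 748 in LNCaP95 (8.01 ± 0.313). NR3C1, the glucocorticoid receptor, which binds elements much like androgen response elements, was at 3.46, 11.4 and 4 in LNCaP and 642, 592 and 408 in LNCaP95 (6.37 ± 0.387, adjusted p = 2.51e-06). These 3 receptor genes had few reads in any LNCaP library and many in each LNCaP95 library. The progesterone receptor gene PGR had 3 reads in all LNCaP libraries and values of 43.1, 67.3 and 78.2 in LNCaP95, a ratio of 62.1-fold (95% exact interval 21 to 303) for counting error alone. VDR, the vitamin D receptor, was at 199.7, 114 and 101 in LNCaP and 541, 569.8 and 543 in LNCaP95 (2.05 ± 0.232). Of 31 tested nuclear receptors on the list, 9 rose and 11 fell (median -0.08), and under equal totals 13 rose and 10 fell. The falls were led by PPARG (-3.03), the receptor of fat cell differentiation, and the thyroid hormone receptor THRB (-2.33), and NR1D2, a repressor of the circadian clock, went from 1313, 1254 and 1336 to 598, 515 and 526 (-1.25 ± 0.0908).

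Several glucuronidation enzymes, which add glucuronic acid to androgens and so inactivate them, were higher in untreated LNCaP95. UGT2B15 was at 785, 2717 and 2893 in LNCaP and 14198, 17256 and 16068 in LNCaP95 (3.11 ± 0.430, adjusted p = 0.000258). LNCaP replicate 1 lay below the other LNCaP libraries, and without it the fold change was 2.49. UGT2B11 was at 366, 1376 and 1423 in LNCaP and 6879.5, 10352 and 12966 in LNCaP95 (3.44 ± 0.484, 2.80 without the same library), and UGT2B10 at 66.9, 55 and 47 in LNCaP and 947, 1293 and 1130.1 in LNCaP95 (4.30 ± 0.171). UGT2B7, which acts on many drugs as well as steroids, was at 2.31, 8.53 and 4 in LNCaP and 149, 165 and 159 in LNCaP95 (4.88 ± 0.370). UGT2B17 did not pass the test (0.79 ± 0.481, adjusted p = 0.173), with values of 1038, 4214 and 4556 in LNCaP and 4699.6, 4777 and 4629.8 in LNCaP95, and without LNCaP replicate 1 its fold change was 0.10. UGT2B28 did not pass either (0.93 ± 0.393, adjusted p = 0.0636). Reads of these near-identical UGT2B genes may be shared among them, so the split between members is uncertain. Of 19 tested genes of androgen synthesis and glucuronidation, 9 rose and 1 fell, STS, the sulfatase that frees steroid precursors (-0.79). HSD3B1, an enzyme that turns adrenal precursors towards androgens, stood at 0, 0 and 0.999 in LNCaP and 6.16, 7.04 and 8.35 in LNCaP95 and was not tested. AKR1C3, a ketosteroid reductase that makes testosterone and whose paralogs may share its reads, was at 32.3, 3.79 and 7 in LNCaP and 38.7, 46.2 and 52.4 in LNCaP95 (2.10 ± 0.624, adjusted p = 0.0156). Its call was lost without LNCaP95 replicate 2 (2.09) or replicate 3 (2.00), and its fold change was 2.91 without LNCaP replicate 1 and 1.51 without LNCaP replicate 2. SRD5A1, a 5-alpha reductase, was at 457, 397 and 413 in LNCaP and 441, 441 and 434 in LNCaP95 and did not pass (0.06 ± 0.0993).

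Luminal epithelial genes were read in both lines, with shifts in both directions. KRT8 and KRT18, the keratin pair of luminal cells, were at 11279, 10747 and 11292 in LNCaP and 14621, 13981 and 16036 in LNCaP95 for KRT8 (0.42 ± 0.0859) and at 15095, 13960.2 and 15012 in LNCaP and 10505, 12049 and 11114 in LNCaP95 for KRT18 (-0.39 ± 0.0877). KRT18 lost its call under equal totals (-0.18), quantile normalisation (-0.14) and removal from each library of a trend with transcript length and GC content (-0.22). EPCAM, an epithelial adhesion molecule, rose (0.86 ± 0.103), and E-cadherin, CDH1, was at 10052, 8063 and 8167 in LNCaP and 12456, 11063 and 11173 in LNCaP95 (0.41 ± 0.108), a call lost when the length and GC trend was removed (0.17). AMACR, a racemase of branched fatty acids used as a prostate cancer stain, was at 954, 995 and 1075 in LNCaP and 4031, 4193 and 3601 in LNCaP95 (1.97 ± 0.0883). Of 13 tested luminal markers, 7 rose and 4 fell, among them KLK3, which belongs to the androgen-induced list as well.

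Some genes of other lineages were higher in LNCaP95, while defining markers of those lineages were at or near 0. NTS, the precursor of the peptide neurotensin, was at 0, 0.948 and 4 in LNCaP and 65.2, 114 and 72.1 in LNCaP95 (5.27 ± 0.560, 5.88 without LNCaP replicate 3), and ENO2, neuron-specific enolase, at 452, 228 and 235 in LNCaP and 566, 527 and 669 in LNCaP95 (1.01 ± 0.249). The defining neuroendocrine genes were low: chromogranin A, CHGA, was at 1.15, 0 and 2 in LNCaP and 0.88, 0.783 and 1.52 in LNCaP95, synaptophysin, SYP, at 15, 7.58 and 9.99 in LNCaP and 4.4, 0 and 4.55 in LNCaP95, and GRP, NEUROD1, FOXA2 and PCSK2 had 0 reads in the DMSO libraries of both lines. Of 28 neuroendocrine markers 11 were tested, 9 of which rose and 0 fell, and the summed level of the list was 4752 to 9301 in LNCaP and 9499.6 to 12925 in LNCaP95. VIM, the filament protein of mesenchymal cells, was at 264, 124 and 117 in LNCaP and 1241, 1147 and 1145 in LNCaP95 (2.90 ± 0.275). LUM, the matrix proteoglycan lumican, was at 5.77, 1.9 and 0 in LNCaP and 1548, 1275 and 1176 in LNCaP95 (8.94 ± 0.579, 9.60 without LNCaP replicate 1 and 8.22 without LNCaP replicate 3). N-cadherin, CDH2, had at most 1 read in any DMSO library of either line, and TWIST1 fell from 24.2, 68.3 and 70 to 0.88, 0 and 0, a ratio of 208-fold (95% exact interval 36.8 to 8271). PTPRC, the leukocyte antigen CD45, had 0 reads in LNCaP and 93.3, 99.4 and 66 in LNCaP95 (at least 27.8-fold higher against a floor of 3 reads per library), while the T cell gene CD3E was at 0 in both. VWF, an endothelial clotting factor, was at 314, 241 and 197 in LNCaP and 10.6, 3.13 and 9.87 in LNCaP95 (-4.94 ± 0.400). Laminin-binding integrins of basal cells rose, ITGB4 from 174, 160.2 and 151 to 710.5, 727 and 609 (2.07 ± 0.119) and ITGA6 by 0.84 ± 0.0916. TP63, the master factor of basal cells, was at 0, 0 and 0 in LNCaP and 0, 2.35 and 0 in LNCaP95, and its list held 7 tested genes of 14, of which 6 rose and 1 fell.

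Transcripts of several surface proteins used as drug targets in prostate cancer were lower in LNCaP95. FOLH1, prostate-specific membrane antigen, was at 37775, 37477 and 39604 in LNCaP and 13759, 13513 and 14485 in LNCaP95 (-1.46 ± 0.0865, adjusted p = 2.25e-06). STEAP1 was at 9391, 12550.4 and 12681 in LNCaP and 4887, 4540.1 and 4435 in LNCaP95 (-1.31 ± 0.123), and its relative STEAP2, a metalloreductase, fell by a like amount (-1.44 ± 0.113). ERBB2, the HER2 receptor, was at 7702, 8134 and 7684 in LNCaP and 2411, 2221 and 2275 in LNCaP95 (-1.77 ± 0.0732), and the protease hepsin, HPN, at 4965, 5197 and 5012 in LNCaP and 967, 1012 and 926 in LNCaP95 (-2.38 ± 0.0730). CD276, an immune checkpoint protein, rose (1.03 ± 0.0724). Of 14 tested surface antigens, 5 rose and 7 fell, all 7 at least 2-fold (median -0.82).

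Genes of cell division were higher in untreated LNCaP95. All 34 tested genes of the mitosis list rose, each at least 2-fold (median 2.25), and 39 of 40 DNA replication genes rose (median 1.28), against 35.3% of all genes. CDK1, the kinase that starts mitosis, was at 1992, 960.4 and 889 in LNCaP and 11917, 14901 and 12434 in LNCaP95 (3.45 ± 0.272, adjusted p = 1.09e-05). MKI67, the marker Ki-67, was at 1820.0, 534 and 374 in LNCaP and 5025, 3118 and 5362 in LNCaP95 (2.62 ± 0.509, 3.29 without LNCaP replicate 1). The LNCaP libraries were uneven here. Averaged over the mitosis list, the log2 level was 10.03, 8.55 and 8.37 in LNCaP and 11.07, 11.12 and 11.19 in LNCaP95, so LNCaP replicate 1 lay between the other LNCaP libraries and LNCaP95. Without it the counts were 34 of 34 and 40 of 40. MCM6, a subunit of the replicative helicase, was at 1466, 1123 and 1069 in LNCaP and 3456, 4039 and 3659.8 in LNCaP95 (1.62 ± 0.126), and SKP2, which targets the inhibitor p27 for degradation, at 511, 435 and 414 in LNCaP and 1865, 2058 and 1781 in LNCaP95 (2.07 ± 0.106).

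Cyclins and cell cycle inhibitors did not move as one group. CCND2, cyclin D2, had 1 read over the 3 LNCaP libraries and values of 557, 691 and 495 in LNCaP95, a ratio of 1698-fold (95% exact interval 304 to 67089) for counting error alone. CCND1, cyclin D1, was at 3258, 2338 and 2316 in LNCaP and 1649, 2002 and 1680.4 in LNCaP95 (-0.56 ± 0.144). CDKN2A, the p16 and ARF locus, was at 883, 1001 and 1038 in LNCaP and 142, 148 and 126 in LNCaP95 (-2.80 ± 0.116), and CDKN1A, p21, at 2201, 1403 and 1541 in LNCaP and 1182, 1155 and 918 in LNCaP95 (-0.64 ± 0.172). MYC fell (-0.56 ± 0.127). Of 24 p53 targets tested, 6 rose and 11 fell (median -0.06), and under equal totals 10 rose and 8 fell. BBC3, a pro-apoptotic BH3 protein, was at 254, 283 and 295 in LNCaP and 44, 37.6 and 30.4 in LNCaP95 (-2.87 ± 0.180), and the death receptor FAS at 66.9, 84.4 and 99.9 in LNCaP and 266, 258 and 235 in LNCaP95 (1.60 ± 0.174).

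**Figure D2:**
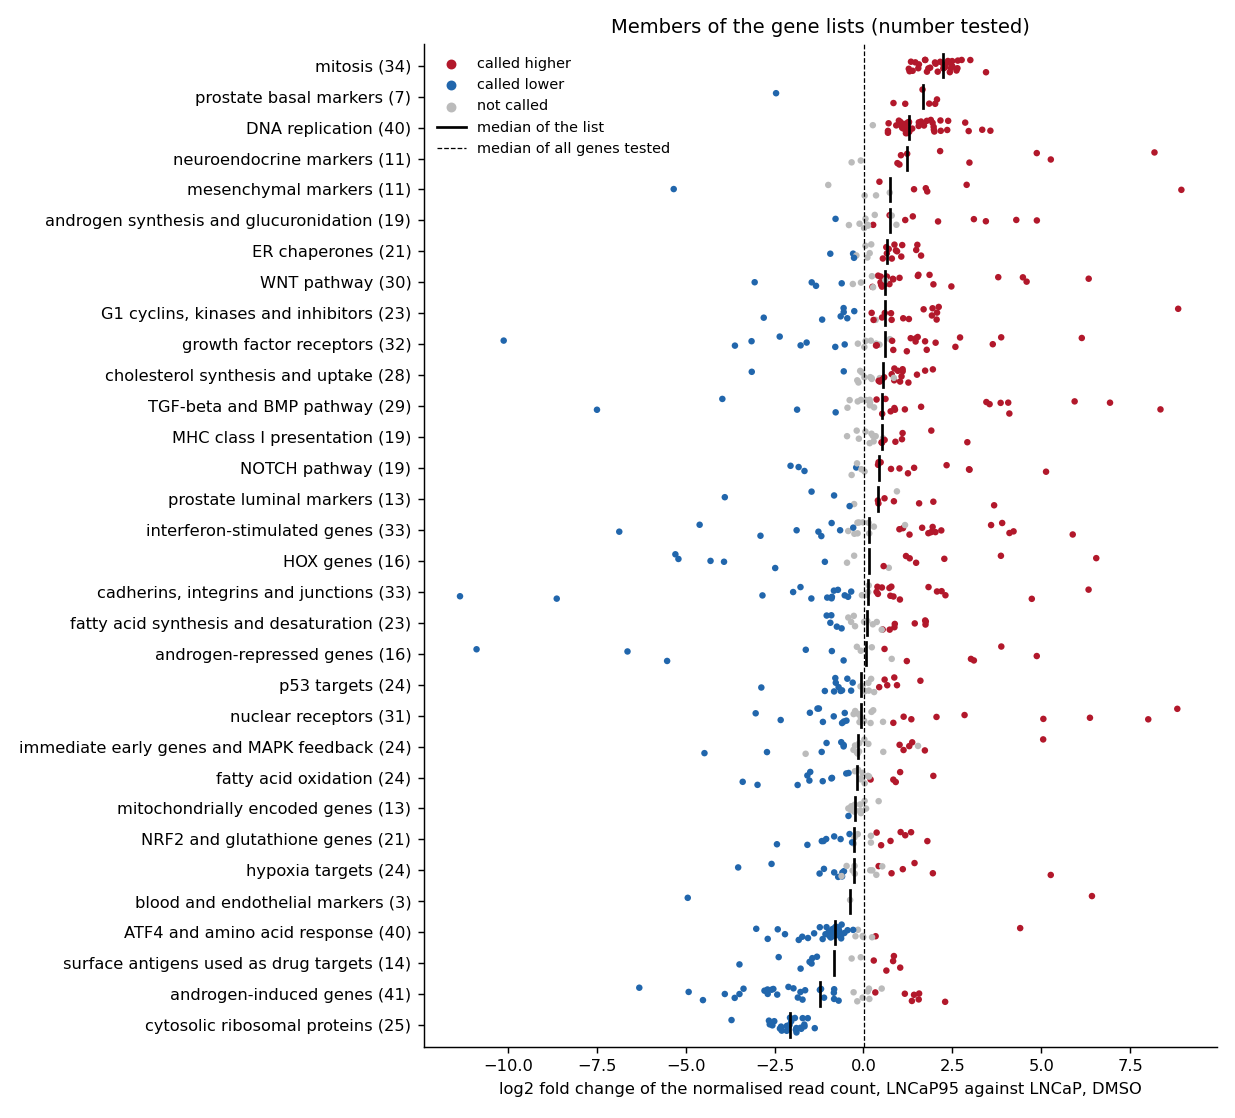
Log2 fold changes of the tested members of 32 gene lists (points; red called higher, blue called lower, grey not called), with each list's median as a bar and the median of all genes tested, 0.02, as a dashed line. The mitosis list (median 2.25) and the cytosolic ribosomal proteins (median -2.07) lie at opposite ends.

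Genes of cytosolic ribosomal proteins, the building blocks of the translation machinery, were lower in LNCaP95. All 25 tested fell, each at least 2-fold, from -3.71 for RPL28 to -1.37 for RPL8 (median -2.07), against 32.5% of all genes. RPL28 was at 36342, 37436 and 37028 in LNCaP and 2828, 2851 and 2782 in LNCaP95 (-3.71 ± 0.0727, adjusted p = 1.85e-08), and RPL7A at 76838, 81919 and 84523 in LNCaP and 12284, 14174 and 12135 in LNCaP95 (-2.66 ± 0.105). The 25 genes took 6.22%, 7.0% and 7.16% of reads in LNCaP and 1.82%, 1.81% and 1.81% in LNCaP95. In the 9 libraries of 22Rv1 they took 4.87% to 6.71%. The list counts stayed at 25 of 25 under equal totals and with the length and GC trend removed, where the median was -1.84. Many of these genes have processed pseudogenes that can share their reads, and ribosomal transcripts are short. With all genes cut into 5 equal bins, the median log2 fold change went from -0.18 in the bin of shortest transcripts to 0.21 in the longest, and from 0.18 in the bin of lowest GC content to -0.26 in the highest. The part of these trends in the ribosomal difference was not tested beyond that removal. Of 13 mitochondrially encoded genes 0 rose and 1 fell, MT-ND3 (-0.42 ± 0.136), a call that was lost without LNCaP95 replicate 2 (-0.43) or 3 (-0.34) or LNCaP replicate 3 (-0.29), and under equal totals (-0.21), quantile normalisation (-0.24), removal of the length and GC trend (-0.04) and a fit of all 27 libraries (-0.42).

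The amino acid and stress response that the factor ATF4 drives was lower in LNCaP95. Of 40 tested members 33 fell, 12 of them at least 2-fold, and 2 rose (median -0.80). ATF4 itself was at 17940.1, 20609 and 19498 in LNCaP and 9700.4, 8479 and 8053 in LNCaP95 (-1.15 ± 0.101), and asparagine synthetase, ASNS, at 12165, 16645 and 18248 in LNCaP and 5355, 4189 and 4591 in LNCaP95 (-1.72 ± 0.157). PCK2, the mitochondrial enzyme that makes phosphoenolpyruvate, was at 17592, 18522 and 19469 in LNCaP and 2904, 1979 and 2086 in LNCaP95 (-3.02 ± 0.140, adjusted p = 7.19e-07). TRIB3, a pseudokinase that restrains ATF4, fell (-2.21 ± 0.148), as did the secreted hormone STC2 (-1.56 ± 0.117). The exception in size was ALDH1L2, a mitochondrial folate enzyme, at 17.3, 7.58 and 6 in LNCaP and 231, 213 and 211 in LNCaP95 (4.41 ± 0.342). GDF15, a stress hormone of the TGF-beta family, was at 55017, 25974 and 29463 in LNCaP and 2994, 1994 and 1834 in LNCaP95 (-3.97 ± 0.284). The chaperones of the endoplasmic reticulum went the other way, with 13 of 21 up and 3 down (median 0.66), among them PDIA4, a disulfide isomerase, at 9025, 8575 and 8543 in LNCaP and 26674, 24466 and 23659 in LNCaP95 (1.52 ± 0.0855), and DNAJC3, a co-chaperone that inhibits eIF2-alpha kinases (1.62 ± 0.0882).

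Sterol synthesis genes were modestly higher in untreated LNCaP95, with 16 of 28 up and 2 down (median 0.55). These shares were 57.1% and 7.14%, beside 35.3% and 32.5% of all genes. At 100 nM 12 were higher and 6 lower (median 0.58), and at 500 nM 10 were higher and 8 lower (median 0.14). CYP51A1, a sterol demethylase, was at 2577, 2199 and 2328 in LNCaP and 5476, 6382 and 5224 in LNCaP95 (1.26 ± 0.101). TM7SF2, a sterol reductase, was the exception at 7577, 5511 and 5691 in LNCaP and 796, 669.9 and 646 in LNCaP95 (-3.14 ± 0.137). FASN, the target of the inhibitor used elsewhere in the series, was at 54998, 29273 and 28676 in LNCaP and 40436, 41132 and 34549 in LNCaP95 with overlapping groups (0.11 ± 0.237, adjusted p = 0.71). Without LNCaP replicate 1, whose FASN value was the highest of the 6, it was 0.41 (adjusted p = 0.00652). FASN was also called higher under quantile normalisation (0.87) and with array weights (0.35). The desaturase SCD was at 8612, 2905 and 2671 in LNCaP and 6626, 4453 and 6592 in LNCaP95 (0.51 ± 0.402, adjusted p = 0.282, and 1.06, adjusted p = 0.00023, without that library). FADS2, which desaturates polyunsaturated fatty acids, rose (1.74 ± 0.234), as did the elongase ELOVL6 (1.44 ± 0.147). Of 24 genes of fatty acid oxidation, 5 rose and 11 fell (median -0.20, and 0.01 under equal totals). DECR1, the reductase for polyunsaturated fatty acids, was at 1452, 1537 and 1583 in LNCaP and 202, 191 and 184 in LNCaP95 (-2.98 ± 0.0925), and ACADVL, which acts on very long chains, at 11499, 11708 and 11527 in LNCaP and 4056, 3937 and 4111 in LNCaP95 (-1.52 ± 0.0701).

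Developmental signalling genes differed widely. Of 30 tested WNT pathway genes 21 rose and 4 fell (median 0.60). The ligand WNT5A was at 34.6, 46.5 and 34 in LNCaP and 806, 940.0 and 871 in LNCaP95 (4.48 ± 0.159) and the transcription factor LEF1 at 12.7, 16.1 and 13 in LNCaP and 362, 334 and 374 in LNCaP95 (4.59 ± 0.174). The WNT pathway receptors LGR4 (1.97 ± 0.101) and LRP6 (1.53 ± 0.0827) rose as well. In the NOTCH list, 11 of 19 rose and 4 fell (median 0.42). The ligand JAG1 was at 635, 797 and 781 in LNCaP and 6575, 6458 and 4615 in LNCaP95 (2.98 ± 0.151), while the feedback inhibitor NRARP (-1.82 ± 0.131) and HES6 (-1.66 ± 0.124) fell. HEY2, a NOTCH target, had 0 reads in LNCaP and 26.4, 36 and 41.7 in LNCaP95 (at least 11.2-fold higher). Among TGF-beta and BMP genes, 16 of 29 rose and 4 fell (median 0.53). Shares higher in the WNT, NOTCH and TGF-beta lists were 70.0%, 57.9% and 55.2%, beside 35.3% of all genes tested. The ligand BMP7 was at 5.77, 0.948 and 3 in LNCaP and 1257, 1122 and 1303 in LNCaP95 (8.35 ± 0.395), and the BMP targets ID1, at 100.4, 104 and 80 in LNCaP and 871, 1197 and 1093 in LNCaP95 (3.46 ± 0.159), and ID3 (4.07 ± 0.223) were higher.

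Growth factor receptors rose in 17 of 32 cases and fell in 8 (median 0.60). RET, the receptor of GDNF ligands, was at 6.92, 8.53 and 9.99 in LNCaP and 629, 616 and 748 in LNCaP95 (6.14 ± 0.189), and the growth hormone receptor GHR at 274, 218 and 226 in LNCaP and 1288, 1438 and 1589 in LNCaP95 (2.59 ± 0.124). The ephrin receptor EPHA3 was at 1385, 2190.0 and 2042 in LNCaP and 3.52, 0 and 0 in LNCaP95 (-10.12 ± 0.546, -10.84 without LNCaP95 replicate 1, the library with its only LNCaP95 reads). IGF1R fell (-1.60 ± 0.236), EGFR, at 914, 650.4 and 525 in LNCaP and 891, 852 and 865 in LNCaP95, did not pass (0.36 ± 0.178, adjusted p = 0.106), and without LNCaP replicate 1 it was 0.57 (adjusted p = 0.000751). Phosphatases that switch off MAP kinases split, with DUSP5 at 62.3, 80.6 and 76 in LNCaP and 2234, 2598 and 2507 in LNCaP95 (5.05 ± 0.127) and DUSP4 at 981, 1176 and 1370.2 in LNCaP and 59, 55.6 and 41.7 in LNCaP95 (-4.47 ± 0.177). HOX genes, which encode positional identity, also split, 7 of 16 up and 6 down. HOXD13 went from 0, 0.948 and 0 to 109, 113 and 126, a ratio of 339.9-fold (95% exact interval 60.7 to 13455), and HOXA10 from 85.4, 148 and 147 to 3.52, 1.57 and 2.28 (-5.20 ± 0.335).

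Interferon-stimulated genes moved both ways, 14 of 33 up and 9 down (median 0.16). BST2, which tethers budding viruses, was at 13.8, 3.79 and 7 in LNCaP and 549, 600.3 and 354 in LNCaP95 (5.88 ± 0.397), and OAS1, a sensor of double-stranded RNA, at 8.08, 4.74 and 4 in LNCaP and 131, 109.6 and 115 in LNCaP95 (4.22 ± 0.282). IFITM2, a membrane protein that blocks viral entry, was at 473, 239 and 288 in LNCaP and 0.88, 2.35 and 2.28 in LNCaP95 (-6.87 ± 0.344), and HERC5, the ISG15 ligase, fell (-2.90 ± 0.237). In the MHC class I list 8 of 19 rose and 0 fell (median 0.51), among them the peptide transporter TAP1 at 959, 711 and 793 in LNCaP and 1709.8, 1761 and 1771 in LNCaP95 (1.10 ± 0.113) and the light chain B2M (0.90 ± 0.100). The shares higher in the interferon and MHC class I lists, 42.4% and 42.1%, lay near the 35.3% of all genes tested. Of the MHC class I genes, 6 were higher and 5 lower in LNCaP95 at 100 nM, and 12 higher and 5 lower at 500 nM.

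The largest differences ran from a few reads in one line to high values in the other. Among rises, LPPR1, a brain lipid phosphatase-related protein, had 2 reads over the LNCaP libraries and values of 4329, 4069 and 3938 in LNCaP95, a ratio of 5992-fold (95% exact interval 1659 to 49485). PREX1, a RAC exchange factor, had 1 read in LNCaP and 1743, 1913 and 2133 in LNCaP95, a ratio of 5666-fold (95% exact interval 1017 to 223817). AGR2, a secretory disulfide isomerase, was at 8.08, 8.53 and 15 in LNCaP and 5246, 7663 and 6400.5 in LNCaP95 (9.16 ± 0.234, adjusted p = 3.96e-08), and the muscarinic receptor CHRM3 at 5.77, 5.69 and 9.99 in LNCaP and 3409.8, 2922 and 4095 in LNCaP95 (8.76 ± 0.224). LPL, lipoprotein lipase, had 0 reads in LNCaP and 391, 633 and 628 in LNCaP95 (at least 178-fold higher). Among falls, NCAM2, a neural adhesion molecule, was at 13400.0, 16146 and 17031 in LNCaP and 4.4, 3.13 and 8.35 in LNCaP95 (-11.35 ± 0.268, adjusted p = 3.75e-08). SLITRK3, a synaptic membrane protein, was at 1359.5, 2983 and 3346 in LNCaP and had 0 reads in LNCaP95 (at least 1058-fold lower), and the prostaglandin receptor PTGFR had 1 read in LNCaP95 against 1967, 1488 and 1539 in LNCaP, a ratio of 6146-fold (95% exact interval 1103 to 242805). The cadherin CDH26 was at 836, 1023 and 873 in LNCaP and 0.88, 1.57 and 1.52 in LNCaP95 (-8.63 ± 0.215).

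**Figure D3:**
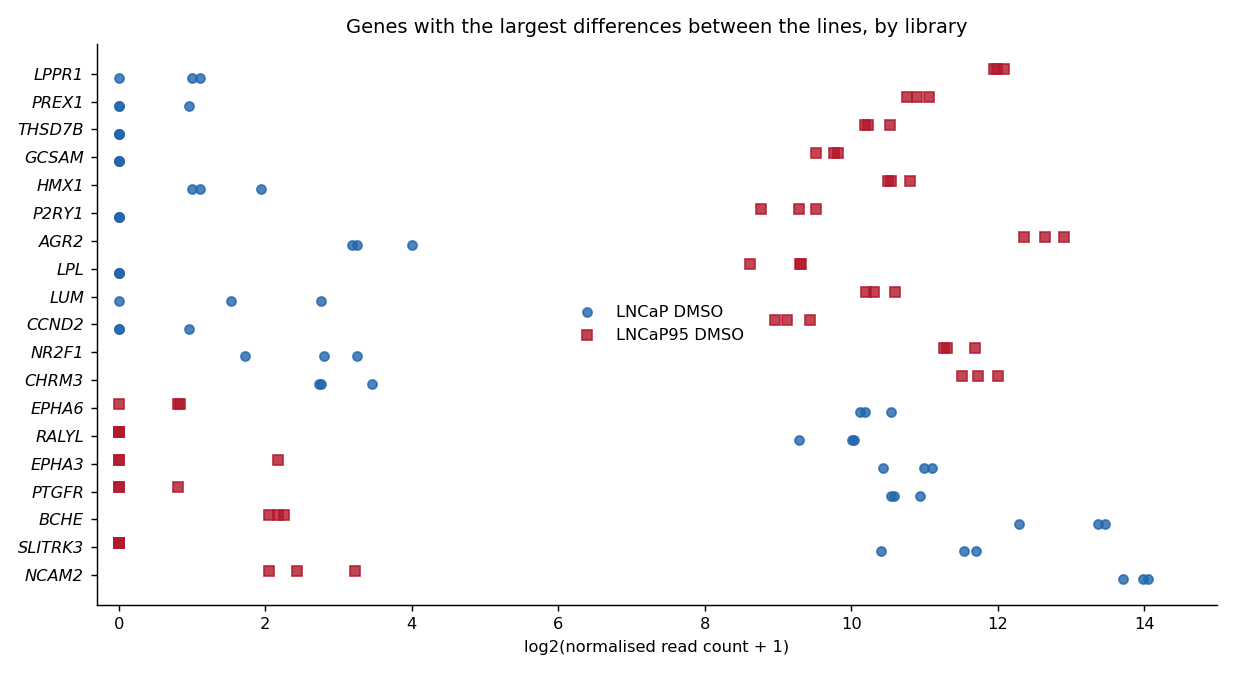
Normalised read counts on a log2(value + 1) axis of the genes with the largest differences, 3 points per line (circles LNCaP, squares LNCaP95, both with DMSO). In each of the 19 genes drawn, one line lies at a few reads or 0 and the other far above. Genes on chromosome Y are not drawn.

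Genes with 0 reads in all 3 libraries of one line and a mean of 10 or more in the other numbered 74 for LNCaP and 54 for LNCaP95. Of the 74, 28 had 0 reads in the LNCaP libraries at 100 nM as well, and 29 at 500 nM. Of the 54, 35 and 30 had 0 reads in the LNCaP95 libraries at those doses. THSD7B, at 1196, 1172 and 1482 in LNCaP95 (at least 414-fold higher), had 0 reads in LNCaP at both doses, and SLITRK3 and RALYL had 0 in LNCaP95 at both. RALYL, an RNA-binding protein gene, was at 624, 1049.5 and 1028 in LNCaP. The relaxin hormone genes RLN1, at 270.1, 247 and 329.8, and RLN2, at 173, 218 and 257, which may share reads, and the zinc finger gene SALL2, at 510.1, 392 and 329, likewise had 0 reads in the untreated LNCaP95 libraries.

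Some of the genes near 0 in one line followed each other among the tested genes of a chromosome, in the order of the RefSeq annotation, though untested genes may lie between them. Near 0 here is a called difference with a mean under 3 in one line and of 10 or more in the other, a wider rule than that of 0 reads. By it 194 genes were near 0 in LNCaP95, of which 19 outside chromosome Y formed 8 runs of tested genes with no other tested gene between them. They included INSL6, RLN2 and RLN1 on chromosome 9, HOXA5, HOXA6 and HOXA10 on chromosome 7, SI and SLITRK3 on chromosome 3, the zinc finger genes ZNF85, ZNF430 and ZNF714 on chromosome 19, and MAGEC1 with MAGEC2 on chromosome X. Near 0 in LNCaP were 248 genes, of which 34 formed 17 runs, among them GBP3 with GBP1, CDH7 with CDH19, SIX3 with SIX2 and CT45A5 with SAGE1. These runs were named after their values were seen. Whether DNA at these sites differs between the lines was not tested.

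The direction of change differed by chromosome, which could be read for 12615 of the 12844 genes. On chromosome 1, 55.4% of 1288 genes were higher and 17.7% lower in LNCaP95 (median log2 fold change 0.41). Chromosome 2 was similar, with 51.1% higher and 21.2% lower. On chromosome 19, 11.7% were higher and 56.4% lower (median -0.44), and chromosomes 9 (median -0.34), 14 (-0.31) and 8 (-0.23) also leaned lower. Chromosome 19 genes had the highest median GC content, 59.1%, and with the length and GC trend removed its median was -0.36, and that of chromosome 1 0.36. Of 12 tested genes on chromosome Y, 12 were lower. Copy number was not tested.

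**Figure D4:**
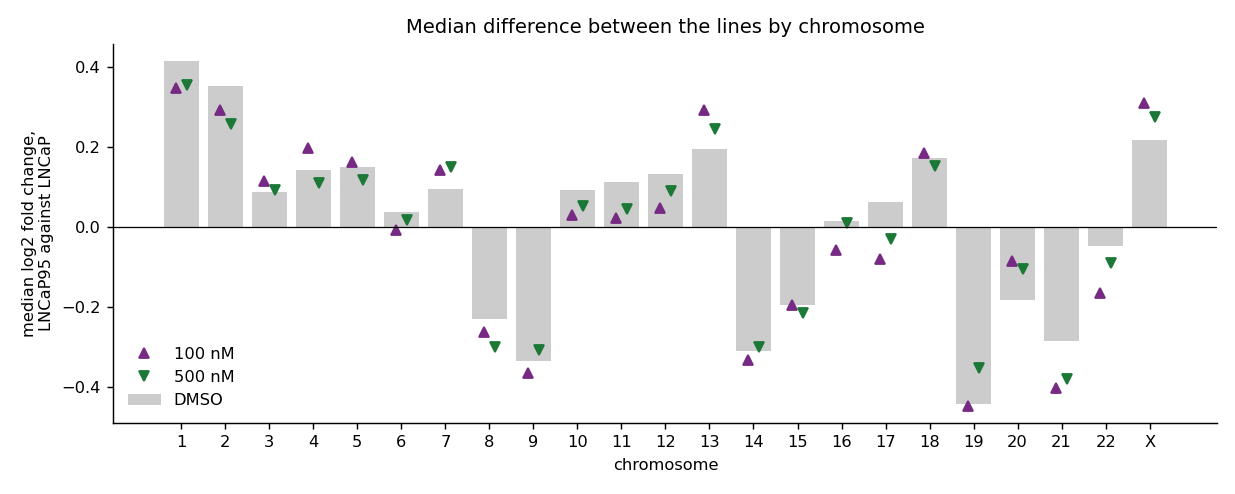
Median log2 fold change of LNCaP95 against LNCaP over the tested genes of each chromosome (log2 scale), as bars for DMSO libraries and as triangles for the separate libraries at 100 nM and 500 nM. Chromosomes 1 and 2 lie above 0 and chromosomes 8, 9, 14, 15, 19, 20, 21 and 22 below 0 at all 3 treatments.

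Fewer of the genes that differed most had a CpG-rich promoter. Of tested genes with a RefSeq window of 300 bases, 83.3% had an observed over expected CpG ratio of 0.6 or more. The share was 75.8% in genes at least 2-fold higher and 72.7% in genes at least 2-fold lower. It was 65.4% of 107 genes at least 32-fold higher and 50.8% of 65 genes at least 32-fold lower. Windows with AGAACA on either strand made up 10.3% and 24.6% of these last groups, beside 8.67% of all. No test was made of these shares.

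The same lines were also compared in libraries the untreated comparison does not use. At 100 nM IPI-9119, 8509 of the 12844 genes (66.2%) changed between the lines, 33.7% higher and 32.6% lower in LNCaP95. At 500 nM 8613 (67.1%) changed, 34.4% higher and 32.6% lower. Of the 8706 genes called with DMSO, 5409 were called in the same direction at 100 nM, 907 in the opposite direction, and 2390 were not called. At 500 nM these numbers were 5836, 655 and 2215. Of the 3711 genes that differed at least 2-fold with DMSO, 2731 and 2870 were called in the same direction at the lower and the higher dose. The test of whether the line difference itself changed with 500 nM, which uses the DMSO libraries again, called 5094 genes (39.7%), 20.3% upward and 19.4% downward.

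Most members of the androgen-induced list were also lower in LNCaP95 at both doses. The line difference in KLK3 was -1.60 ± 0.193 at 100 nM and -1.34 ± 0.154 at 500 nM, in TMPRSS2 -3.82 ± 0.0997 at 100 nM and -3.62 ± 0.139 at 500 nM, and in FOLH1 -0.80 ± 0.134 at 100 nM and -0.78 ± 0.109 at 500 nM. Between DMSO and 500 nM the KLK3 difference changed by 2.56 ± 0.212 (adjusted p = 2.51e-06). KLK3 values were 2482 to 3752 in LNCaP and 1113 to 1559 in LNCaP95 at 500 nM. For FKBP5 no line difference was called at either dose (-0.07 ± 0.100 at 100 nM and -0.08 ± 0.0885 at 500 nM). In the androgen-induced list, 27 of 41 fell and 8 rose at 100 nM, and 26 fell and 6 rose at 500 nM. The androgen synthesis and glucuronidation list had 9 higher and 6 lower in LNCaP95 at 100 nM, and 9 and 5 at 500 nM. UGT2B7, UGT2B11 and UGT2B15 kept higher means in LNCaP95 at both doses. UGT2B10 did not: its means were 1200 in LNCaP and 853 in LNCaP95 at 100 nM. At 500 nM they were 1029 and 873. STEAP1 (-0.06 ± 0.0988 at 100 nM and -0.09 ± 0.0751 at 500 nM) and STEAP2 (0.28 ± 0.128 at 100 nM and -0.14 ± 0.0877 at 500 nM) did not pass the test at either dose. Among receptors, the line difference in NR3C1 was 6.42 ± 0.375 at 100 nM and 7.19 ± 0.591 at 500 nM and in NR2F1 7.44 ± 0.249 at 100 nM and 6.83 ± 0.488 at 500 nM.

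Most cell division genes were not higher in LNCaP95 among treated cells. At 100 nM 0 of 34 mitosis genes were higher and 19 lower in LNCaP95 (median -0.55), and at 500 nM 6 were higher and 10 lower (median -0.07). The change of the line difference was called downward for 34 of 34 mitosis and 40 of 40 replication genes. In LNCaP the mitosis list averaged a log2 level of 9.81, 10.60 and 10.62 at 100 nM and 9.68, 9.93 and 9.88 at 500 nM, beside 10.03, 8.55 and 8.37 with DMSO. Each treated LNCaP library lay above DMSO replicates 2 and 3, while DMSO replicate 1 lay above all 3 libraries at 500 nM and 1 of 3 at 100 nM. In LNCaP95 it was 9.43, 9.86 and 9.83 at 100 nM and 9.33, 9.86 and 9.91 at 500 nM, below each of its DMSO libraries. CDK1 did not differ by the test at either dose (-0.51 ± 0.220 at 100 nM and -0.09 ± 0.172 at 500 nM, adjusted p = 0.0589 and 0.666).

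The ATF4 list went the other way: 38 of 40 genes were higher in LNCaP95 and 0 lower at 100 nM (median 1.34), and 37 higher and 2 lower at 500 nM. Averaged over the list, the log2 level was 11.78, 11.88 and 11.91 in LNCaP and 10.93 to 11.23 in LNCaP95 with DMSO, and 10.74, 11.08 and 11.04 and 12.19, 12.04 and 12.08 at 500 nM. Thus LNCaP lay above LNCaP95 in each DMSO library and below it in each library at 500 nM. PCK2 went from -3.02 with DMSO to 0.63 ± 0.101 at 100 nM and 0.42 ± 0.102 at 500 nM. The ribosomal list kept its direction, with 25 of 25 lower at both doses (medians -1.65 and -1.49). Its line difference shrank between DMSO and 500 nM: the change was called upward in 22 of 25 genes and downward in 0 (median 0.56). The mean log2 level of the ribosomal list was 13.51, 13.50 and 13.48 in the LNCaP95 DMSO libraries and 13.40, 13.66 and 13.60 at 500 nM. In LNCaP it was 15.51, 15.62 and 15.69 with DMSO and 15.12, 15.13 and 15.02 at 500 nM. ER chaperones were higher at both doses, in 20 and 21 of 21 genes. The genes with the largest differences named here kept their direction: AGR2 was at 6.11 ± 0.155 at 100 nM and 5.21 ± 0.167 at 500 nM, NCAM2 at -10.67 ± 0.405 at 100 nM and -10.89 ± 0.251 at 500 nM and BCHE at -9.42 ± 0.319 at 100 nM and -10.48 ± 0.194 at 500 nM.

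**Figure D5:**
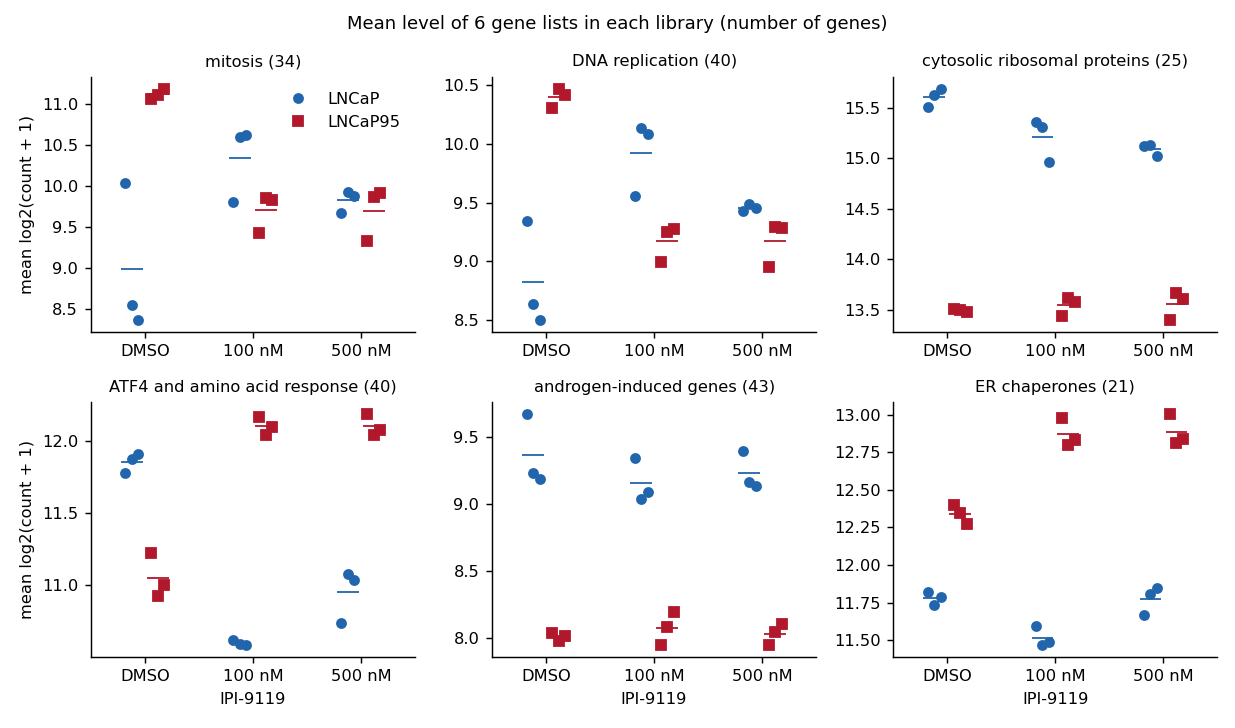
Mean log2(normalised read count + 1) of 6 gene lists in each library of LNCaP (circles) and LNCaP95 (squares) with DMSO, 100 nM and 500 nM IPI-9119, with a bar at the mean of 3 libraries and axes that do not start at 0. Ribosomal and androgen-induced genes keep the lines apart at each treatment, whereas the mitosis levels overlap at both doses and the ATF4 levels change order.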

How the data were processed

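RNA sequencing libraries were compared between untreated LNCaP95 and LNCaP cells (n = 3 each). The submitters' processing notes name STAR 2.3.1z4, featureCounts, DESeq and build hg19. The deposited signal is the read count after division by the library's size factor: in each of the 27 libraries, 100% of values were whole multiples of 1 read (tolerance 1e-06). No source used here states the strand setting, so overlapping and antisense genes are uncertain, as are near-identical families (UGT2B, UGT1A, AKR1C, KLK, HLA, ribosomal).

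Values were tested as log2(value + 1) with limma 3.58.1 in R 4.3.3 (intensity trend, two-sided, Benjamini-Hochberg over 12844 genes). edgeR 4.0.16 and DESeq2 1.42.0 on the recovered reads, other scalings, filters and pseudocounts, and single libraries left out were alternatives. The lines at each dose were fitted alone. Named genes were a panel of 49, the 12 largest rises and falls (mean of 50 or more, no overlap; 5 of these falls lie on chromosome Y and are not named), up to 4 members per list with the smallest p, and up to 8 genes silent in one line. GDF15, PGR, VDR, ASNS, ATF4 and members quoted beside list counts were added after their values were seen. Members and all 33 lists were chosen with earlier results of these data known. Of the lists, 5 held a tested gene at 0 in one line, and with those genes at their bound 0 medians moved. Intervals and floors (3 reads per library) cover counting error only. Chromosomes, neighbours and promoters came from RefSeq (GRCh38.p14) by symbol, and lengths and GC from GENCODE 29 transcripts for 12690 genes. The fit was tested on simulated data. Some named genes are not reported here.

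The lists not described elsewhere are given as members up and down of those tested. Fatty acid synthesis and desaturation had 8 up and 5 down of 23, and cadherins, integrins and junctions 15 and 14 of 33. G1 cyclins, kinases and inhibitors had 15 and 7 of 23, and hypoxia targets 6 and 9 of 24. NRF2 and glutathione genes had 7 and 9 of 21, immediate early genes 6 and 7 of 24, and mesenchymal markers 6 and 1 of 11. Over all genes tested, 35.3% were up and 32.5% down. Near these lay the shares up in fatty acid synthesis (34.8%) and NRF2 genes (33.3%). So did the shares down in hypoxia (37.5%) and immediate early genes (29.2%).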

Additional observations from a re-analysis of the deposited data

Results flagged for a closer look

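For 22 genes of the panel, the difference between LNCaP95 and LNCaP itself changed between DMSO and 500 nM IPI-9119, by the limma interaction test that reuses the DMSO libraries. That change is given below on the log2 scale, as the line difference at 500 nM minus that with DMSO. Such a change was called in 39.7% of all genes tested, so flags of this kind are common in this design.

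The line difference in androgen-induced and surface genes shrank for KLK3 (2.56), KLK2 (1.75), KLK4 (0.79), TMPRSS2 (1.30), FOLH1 (0.68), STEAP1 (1.21), STEAP2 (1.30) and ERBB2 (0.29), each of which was lower in LNCaP95 with DMSO. It also shrank for FOXA1 (0.69) and IGF1R (1.12). Genes higher in LNCaP95 with DMSO whose difference moved down were FKBP5 (-1.44), AMACR (-1.17), KRT8 (-0.39), VIM (-1.10) and MET (-0.80). The cell division genes CDK1 (-3.53), MKI67 (-2.81) and UBE2C (-2.11), all higher in LNCaP95 with DMSO, moved down as well. CCND1 (-0.86), which was already lower in LNCaP95, moved further down. FASN (-1.16), SRD5A1 (-0.60) and UGT2B28 (-3.04) did not differ by the test with DMSO, and each was called lower in LNCaP95 at 500 nM.

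The level of each gene in LNCaP DMSO replicate 1 enters these tests. In MKI67 that library stood at 1820.0, beside 534 and 374 in the other LNCaP libraries. Fits of the change were also made without it, but their values for single genes are not reported here. The number of genes whose line difference changed was 4409 to 6109 over the fits that left out 1 library, and it was highest without LNCaP DMSO replicate 1.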

How the results depend on the processing

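The count of genes that differed between untreated lines stayed within 1.5 times the 8706 reported: it was 7789 with a filter at 50, 10026 with array weights, 7816 to 9433 with 1 library left out (highest without LNCaP replicate 1), and 8711 by edgeR. Changes of at least 2-fold numbered 2894 to 4601 over all settings and 3580 to 3945 with 1 library left out, and the leave-one-out ranges at 100 nM and 500 nM were 7610 to 8570 and 7811 to 8318. Of 182 named genes tested, 166 kept their call and direction under all 19 alternatives, 5 lost a call and 9 gained one in some alternative. Directions turned in 7, none of them called: BCL2 (-0.10) and SRD5A1 (-0.27) with the length and GC trend removed, ERBB3 under equal totals (0.051) and without LNCaP replicate 1 (-0.26 to 0.0082 with 1 library left out), FASN without LNCaP replicate 2 or 3 (-0.056 to 0.41 with 1 library left out), MT-ND2 (0.22), MT-CO3 (0.51) and MT-CYB (0.40) under quantile normalisation, and MT-CYB with array weights (0.046). The causes were not tested. With the replicate block, 8460 genes were called with DMSO, 3715 of at least 2-fold, 8737 at 100 nM, 8474 at 500 nM and 5296 for the change with 500 nM. Same-numbered DMSO libraries of both lines did not deviate together (correlations -0.01, -0.07 and -0.05), and none correlated best with its own number. So few libraries cannot show whether replicates of the same number shared a batch. Among treated libraries, replicate 1 had the lowest mean level of the mitosis list in both lines at both doses. A shared batch was not tested. Equal totals added the calls of SRD5A1 (0.27), EGFR (0.57) and UGT2B28 (1.13), and array weights those of EGFR (0.50) and SCD (1.07). Among named genes the block added the calls of UGT2B28 (0.93) and MT-ND2 (-0.43) and removed none. The removal of the length and GC trend and the counts of list members under other settings were added after seeing the data. Depth limits weakly read genes, and genes without a value of 10 or more in at least 3 of the 6 libraries were not tested.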
